A study of Bos taurus with 29 samples.

Results

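The comparison described here was that of high and low circulating progesterone (P4) in the glandular epithelium (GE) of the bovine endometrium. It comprised 10 of the 29 samples of the series, chosen by the labelled cell type, with 3 samples from cows with high P4 and 7 samples from cows with low P4. All were Holstein dairy cows biopsied 45 days postpartum according to the sample labels, and the limit between the P4 groups was 1 ng/mL. GE cells were cut from frozen tissue by laser capture. Every cow gave a single GE sample, so the 10 samples are independent animals, and no sample is paired with another. The cows are numbered from 1 to 13 over the series. GE of high P4 came from cows 2, 4 and 9, and GE of low P4 came from cows 3, 6, 8, 10, 11, 12 and 13.

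The P4 groups are natural states of the ovary. Cows of the high P4 group had a functional corpus luteum, the ovarian gland that secretes P4 after ovulation. The low P4 group of the study joined cows still in anoestrus after calving with cycling cows around estrus, and the labels do not say which GE sample came from which. The labelled groups therefore differ in more than P4, and the effect of P4 itself and that of the ovarian stage cannot be told apart.

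Endometrial glands secrete histotroph, the mixture of proteins and nutrients on which the conceptus feeds before implantation. P4 acts on target cells through a nuclear receptor that changes transcription. In the bovine uterus, estrogen around estrus favours growth of the epithelium, whereas the luteal phase, governed by P4, is the period of gland secretion.

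Each GE sample was measured as an estimated read count and a TPM level for the same 37925 bovine transcripts. TPM gives the abundance of a transcript relative to all others of the sample, corrected for its length. The sources at hand do not pair these transcripts with genes, as 0 of the identifiers could be matched to a symbol, so the values are given per transcript and no gene or pathway is named. The sequences of the transcripts were likewise not analysed here. The main test used counts rounded to whole numbers with TMM scaling, a normalization that assumes that most transcripts do not change. CPM, used for levels and overlaps, is the count relative to the total of the sample after this scaling, not corrected for length. Of all transcripts, 24372 reached 10 counts in 3 or more GE samples and were tested.

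Depth did not separate the groups. The total estimated counts were 25123531 to 27966514 in GE of high P4 and 25023722 to 31060024 in GE of low P4 (exact permutation test, two-sided, p = 0.158, where the smallest p possible is 0.00833). The number of transcripts with at least 10 counts was 22064.7 ± 89.9 (SD, n = 3) in high P4 and 22142.3 ± 691 (SD, n = 7) in low P4 (exact permutation test, p = 0.883). The 10 most abundant transcripts held 6.59% ± 0.536 (SD, n = 3) of the counts in high P4 and 7.80% ± 2.48 (SD, n = 7) in low P4 (exact permutation test, p = 0.458). No sample was a copy of another, as 0 of the 45 pairs of GE samples had identical counts.

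The labelled cell type could not be checked on marker genes without gene names, so whole profiles were used. Over log2(TPM + 1) of the tested transcripts, the correlation of a GE sample with the mean of the other low P4 GE samples lay between 0.940 and 0.967. With the mean of low P4 luminal epithelium (LE), the lining of the uterine lumen, it lay between 0.905 and 0.934. With low P4 stroma (ST), the connective tissue around the glands, it lay between 0.847 and 0.920. All 10 GE samples were nearer to GE than to LE or ST. The margin was thin in cow 13, at 0.940 for GE, 0.934 for LE and 0.920 for ST. These are correlations across transcripts, many of which are expressed in every cell type.

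The ranges of high and low P4 samples of GE overlapped on each of the first 3 components. For the 500 most variable transcripts, 33.7% of the variance lay on the first component, 17.2% on the second and 12.9% on the third. Samples of high P4 lay between -23.7 and -7.70 on the first component and samples of low P4 between -23.9 and 36.9. On the second, high P4 samples lay at -18.7, -9.75 and -8.00, and low P4 samples between -14.7 and 32.4. Only cow 13, at -14.7, made the overlap on the second, as the other 6 low P4 samples lay at -7.38 or above. On the third, high P4 samples lay between 7.87 and 12.9, and cow 3, at 20.6, was the only low P4 sample above them, with the other 6 between -18.3 and 2.73. On the first component, cow 12 of low P4 lay among the high P4 samples, cow 10 below them and the other 5 above them.

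**Figure D1:**
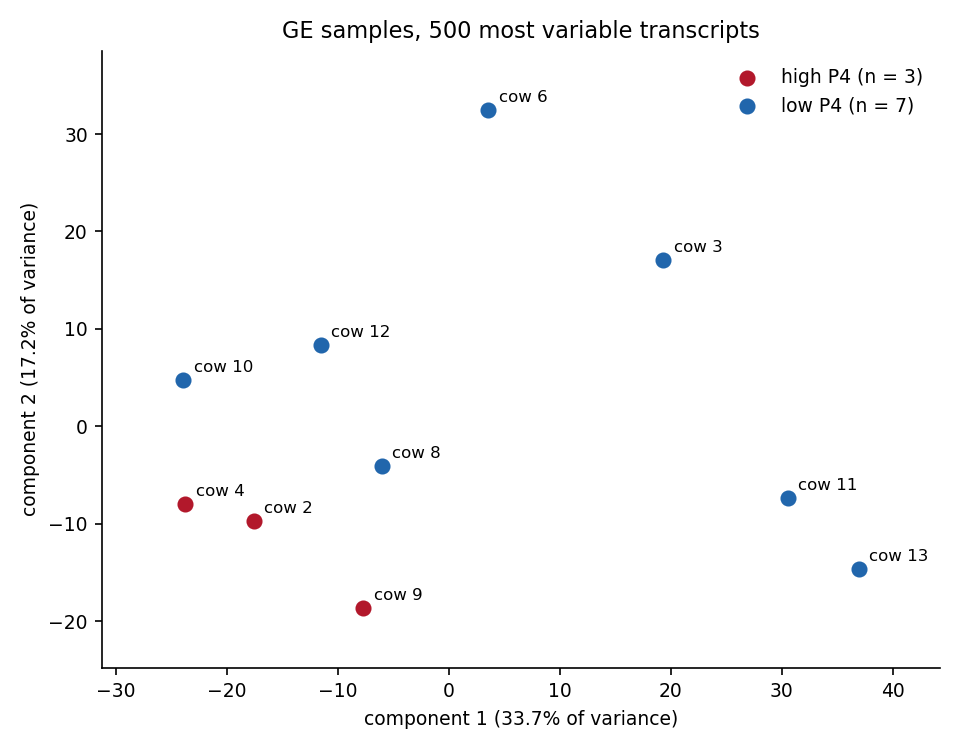
Positions of the 10 GE samples on the first (x axis) and second (y axis) components of the 500 most variable transcripts, in units of variance-stabilized expression, with 3 high P4 samples in red and 7 low P4 samples in blue. High P4 samples span -23.7 to -7.70 on the first component, and low P4 samples span -23.9 to 36.9.

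At an adjusted p of at most 0.05, 1 transcript fell in GE of high P4 and 0 rose, with edgeR's quasi-likelihood test and Benjamini-Hochberg adjustment. This is 0.0041% of the transcripts tested for the lower direction and 0% for the higher direction. Without adjustment, 2221 transcripts (9.11%) had a p under 0.05, of which 843 (3.46%) had a positive and 1378 (5.65%) a negative log2 fold change of high minus low P4. The limma voom test called 1 transcript, in the higher direction, and its 2209 transcripts with an unadjusted p under 0.05 leaned the other way, with 1428 higher and 781 lower. The majority direction of the weak differences thus depended on the test. DESeq2 called 427 transcripts (1.75%), 103 higher (0.423%) and 324 lower (1.33%).

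The transcript that fell was ENSBTAT00000039909.5, which is 4414 bases long. Its level was 0 CPM in all 3 high P4 samples, and in low P4 samples it was 2.81 CPM at the lowest, 5.38 CPM at the median and 9.40 CPM at the highest. In GE, every low P4 cow therefore had reads of it and no high P4 cow did. Counts in low P4 summed to 1150. Against a floor of 3 counts over the high P4 samples (0.0359 CPM), the mean of 5.81 ± 2.33 CPM (SD, n = 7) in low P4 makes the level at least 162-fold lower in high P4 (edgeR quasi-likelihood test, Benjamini-Hochberg adjusted p = 0.0306). The call was lost with limma voom (adjusted p = 0.301), in a fit of all 29 samples (0.138), with a covariate for the letter that opens each title (0.123) and without cows 6 and 13 (0.131), and it held in 4 of the 10 fits that left out a sample, where the adjusted p was 0.0301 to 0.157. It was lost without cow 2 (adjusted p = 0.157), cow 3 (0.119), cow 4 (0.0683), cow 6 (0.120), cow 10 (0.121) and cow 11 (0.0770).

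ENSBTAT00000039909.5 was not missing from the other cell types of high P4 cows. It was measured at 2.48 CPM in LE of cow 9, the single LE sample of high P4, and at 2.58 to 11.2 CPM in LE of 6 low P4 cows. In ST, the high P4 cows 5, 9 and 4 had 0, 1.59 and 3.61 CPM, and 9 low P4 cows had 0 to 5.89 CPM, with 2 of them at 0. Cows 4 and 9 thus had reads of it in ST while their GE had 0. The difference between cell types was not tested.

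ENSBTAT00000068817.1, of 3494 bases, was lower in every high P4 sample than in any low P4 sample. This was fixed in advance, as the named transcripts were chosen among those whose groups do not overlap. Cow 2 had 2.51 CPM, cow 4 had 1.74 CPM and cow 9 had 2.72 CPM. In low P4 it was 14.3 CPM at the lowest, 22.05 CPM at the median and 47.9 CPM at the highest. The gap between the groups was wide, as the lowest low P4 sample lay several times above the highest high P4 sample. A wide gap was favoured by the choice too, which took the smallest edgeR p. The means were 2.32 ± 0.514 CPM (SD, n = 3) and 24.7 ± 11.8 CPM (SD, n = 7), a ratio of 10.6 of low to high P4. The log2 fold change was -3.41 (SE 0.47), which did not pass with edgeR (Benjamini-Hochberg adjusted p = 0.134) and passed with DESeq2 (adjusted p = 4.06e-12). In LE, it was 7.45 CPM in the high P4 cow and ranged from 0.625 to 138 CPM in low P4 cows, so the groups overlapped there. In ST, no sample exceeded 6.57 CPM.

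ENSBTAT00000066890.1, of 3406 bases, had reads only in GE of high P4 among the 29 samples. GE of cow 2 had 5.84 CPM, that of cow 4 had 7.86 CPM and that of cow 9 had 9.69 CPM. It was at 0 in the 7 low P4 GE samples, in all 7 LE samples and in all 12 ST samples, those of high P4 cows 4 and 9 included. The 650 counts in high P4 give a mean of 7.80 ± 1.92 CPM (SD, n = 3), at least 509-fold higher than the floor of 3 counts over the low P4 samples (0.0153 CPM). With edgeR's quasi-likelihood test it did not pass (Benjamini-Hochberg adjusted p = 0.134), whereas limma voom (adjusted p = 0.00192) and DESeq2 (adjusted p = 2.41e-17) called it. Which of the transcripts of a locus receives the shared reads is an estimate of Salmon, and an exact 0 in a group can be such an assignment as well as an absent transcript. Whether sister transcripts moved the opposite way was not tested, as transcripts are not paired with genes.

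ENSBTAT00000021612.6, of 2658 bases, was the most abundant of the 4 transcripts named. Cow 2 had 107 CPM, cow 4 had 101 CPM and cow 9 had 79.9 CPM, against 19.2 CPM at the lowest, 34.4 CPM at the median and 43.2 CPM at the highest in low P4. All high P4 samples lay above all low P4 samples, which the choice of named transcripts required. The means were 96.1 ± 14.4 CPM (SD, n = 3) and 33.3 ± 8.17 CPM (SD, n = 7), a ratio of 2.89. The log2 fold change was 1.53 (SE 0.24), which did not pass with edgeR (Benjamini-Hochberg adjusted p = 0.204) and passed with DESeq2 (adjusted p = 1.10e-05). LE of the high P4 cow was at 122 CPM and LE of low P4 cows between 20.5 and 93.7 CPM. In ST, levels were 1.27 to 10.9 CPM in high P4 and 1.61 to 36.2 CPM in low P4, so that a higher level with high P4 was not seen there.

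**Figure D2:**
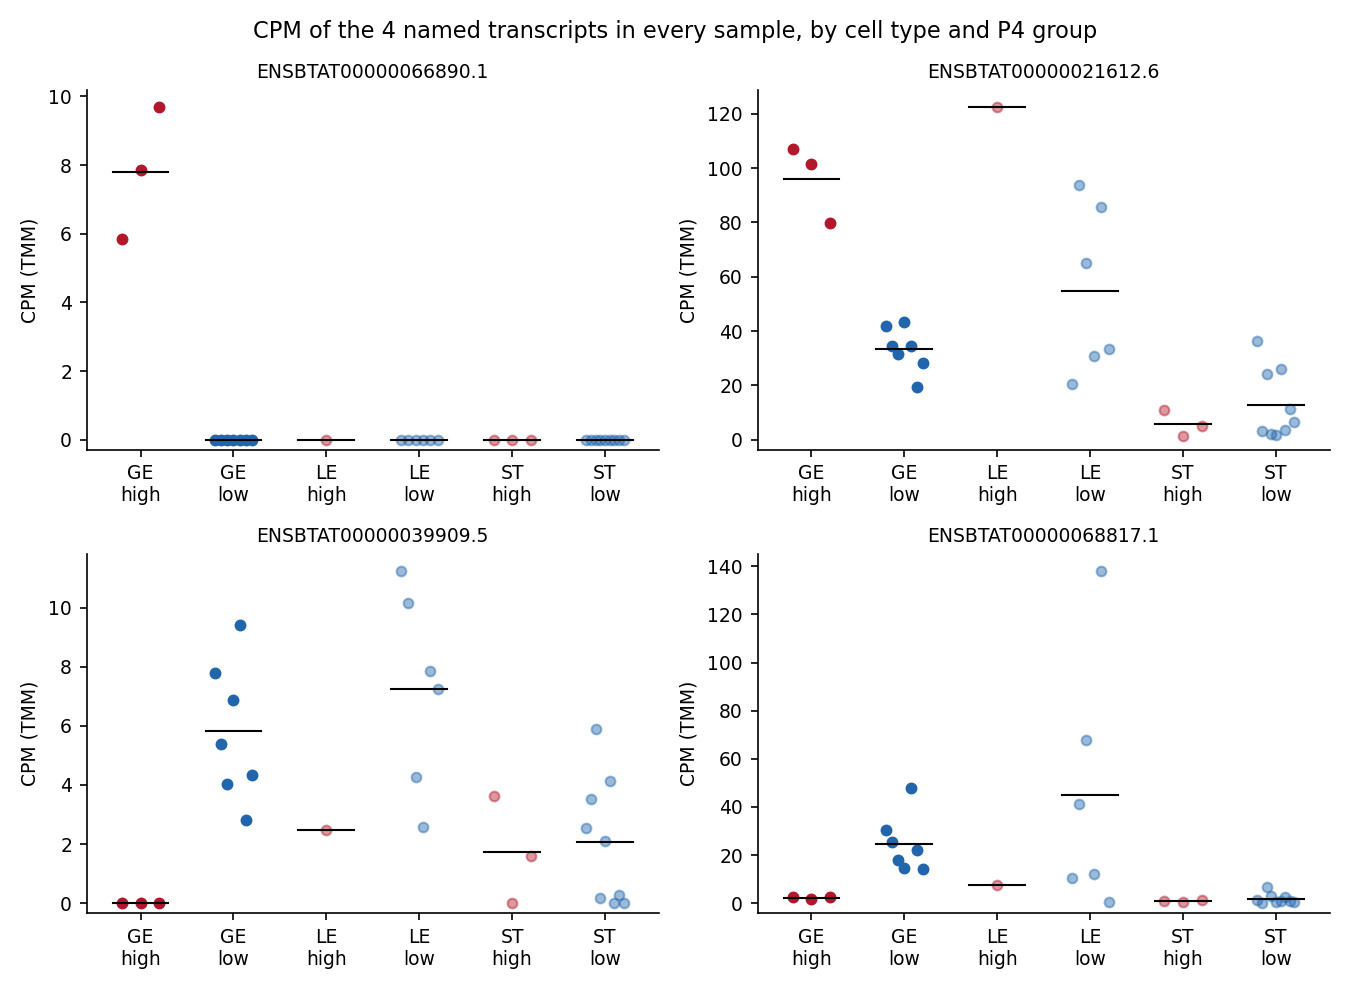
CPM (y axis) of the 4 transcripts named in the text in each of the 29 samples, by cell type and P4 group (x axis), with high P4 in red, low P4 in blue, samples in order of cow number and a black line at each group's mean. GE samples were scaled over the GE samples alone, and LE and ST samples over all 29. The 4 were chosen among transcripts whose GE groups do not overlap, so their separation in GE was fixed by the choice. ENSBTAT00000066890.1 is at 0 in all samples other than GE of high P4.

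Groups that did not overlap were found for more transcripts than the adjusted tests called. In 589 transcripts (2.42%) all 3 high P4 samples lay above the 7 low P4 samples in CPM, and in 503 (2.06%) all lay below. With TPM in place of CPM the numbers were 1067 and 208, so the share of higher transcripts among those not overlapping was 53.9% in CPM and 83.7% in TPM. On both scales, 511 transcripts were higher and 188 were lower. If the 3 high P4 labels were dealt at random over the GE samples, there would be 120 choices. The share of transcripts expected without overlap would then be at most 0.00833 in each direction. The 208 of 24372 transcripts lower in TPM were close to this share, whereas the 1067 in TPM and the counts in CPM lay above it. Whether any count differed from this share was not tested. Over 17972 transcripts, the median log2 ratio of the group means was -0.07 in CPM and 0.14 in TPM. Against these medians, the number of higher and lower transcripts cannot be read as a direction of the P4 effect in GE.

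Among transcripts whose groups did not overlap, large differences took a greater share of those lower in high P4 than of those higher. In CPM, of the 534 higher transcripts with a mean of at least 1 CPM, 272 (50.9%) differed at least 2-fold between the group means, 53 at least 4-fold and 17 at least 8-fold. Of the 462 lower transcripts, 299 (64.7%) differed at least 2-fold, 113 at least 4-fold and 57 at least 8-fold. In TPM, 472 of 984 higher transcripts (48.0%) and 133 of 184 lower transcripts (72.3%) differed at least 2-fold. No test was made of this contrast, since the groups of 3 and 7 samples were used to choose the transcripts. The same shares over all transcripts tested were not computed, so the contrast cannot be called particular to the transcripts without overlap. The lower set in TPM was close in number to that expected from labels dealt at random. Its share of 72.3% therefore need not describe differences between the P4 groups.

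**Figure D3:**
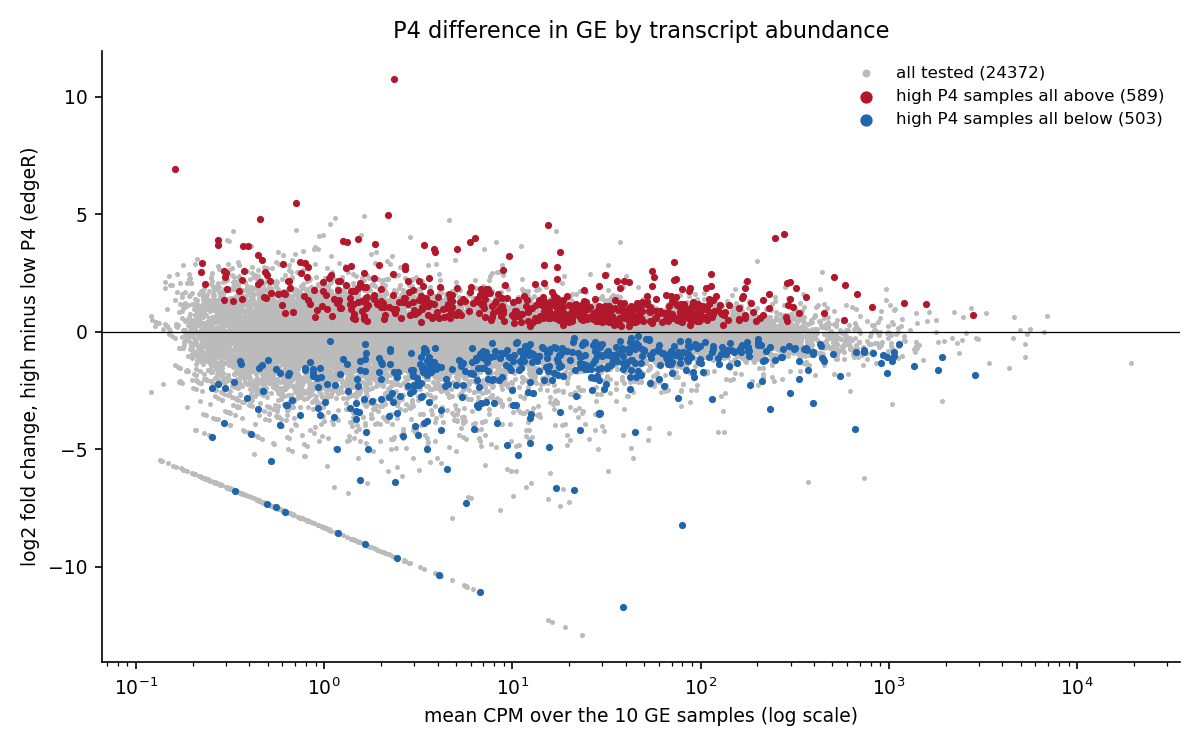
Fitted log2 fold change of high minus low P4 in GE (y axis) against mean CPM (x axis, log scale) for the 24372 transcripts tested, with the 589 transcripts whose high P4 samples all lay above in red and the 503 whose high P4 samples all lay below in blue. The oblique line of points at the lower left holds transcripts at 0 in all 3 high P4 samples, whose fitted values depend on the prior count and are no measure of fold.

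Reads absent from a whole group were seen mostly on the high P4 side, which has fewer samples. Of the tested transcripts, 205 were at 0 in all 3 high P4 samples, but only 9 of these had reads in every low P4 sample and 2 had at least 10 counts in each. Conversely, 2 transcripts were at 0 in all 7 low P4 samples, and both had at least 10 counts in every high P4 sample. A transcript had to reach 10 counts in 3 samples to be tested, so that one at 0 in low P4 had to reach them in every high P4 cow.

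The share of transcripts with weak differences grew with abundance. Transcripts with an unadjusted p under 0.05 in edgeR made up 6.12% of the 5772 transcripts with a mean below 1 TPM in GE, 8.68% of the 9572 between 1 and 10 TPM, 11.1% of the 7398 between 10 and 100 TPM and 13.3% of the 1630 at 100 TPM or more. In the most abundant class, 70 were higher and 146 lower with high P4. The same class held 32 transcripts whose high P4 samples all lay above (1.96%) and 80 whose high P4 samples all lay below (4.91%) in CPM, while in TPM the numbers turned to 101 and 39. The median log2 fold change over all transcripts of this class was -0.30, against -0.18, -0.07 and -0.03 in the classes from the least to the next most abundant.

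**Figure D4:**
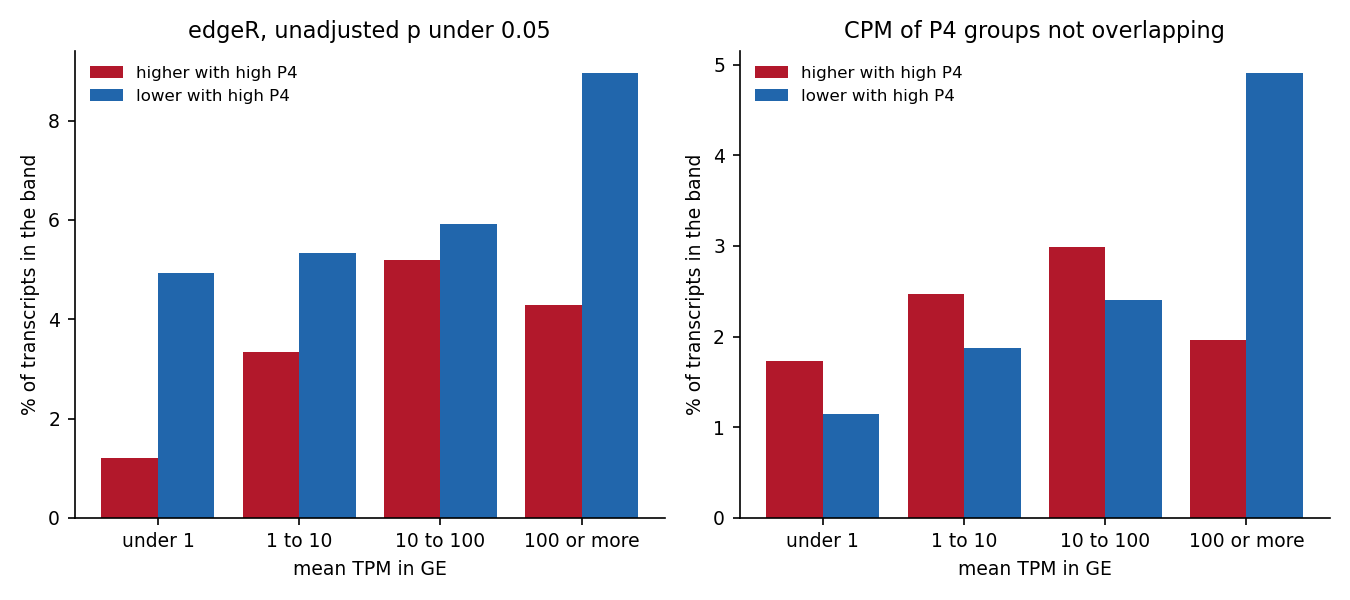
Percentage of transcripts (y axis) in 4 classes of mean TPM in GE (x axis) that had an unadjusted edgeR p under 0.05 (left) or CPM values of the P4 groups that did not overlap (right), with transcripts higher in high P4 in red and lower in blue. At 100 TPM or more, 4.91% did not overlap in the lower direction and 1.96% in the higher direction in CPM.

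Length moved with direction. The median length was 2263 bases over all tested transcripts, 2613 bases over the 589 whose high P4 samples all lay above, and 1969 bases over the 503 whose high P4 samples all lay below. In 4 length classes of equal size from the shortest to the longest, the higher transcripts numbered 90, 137, 159 and 203, and the lower transcripts 149, 158, 116 and 80. The median log2 fold change over all transcripts of these classes was -0.177, -0.104, -0.0643 and -0.0120. The trend with length was thus seen over all tested transcripts and was not particular to those without overlap. The tilt of a sample was measured as the median log2 deviation of its longest transcripts minus that of its shortest, among transcripts with a mean of at least 10 CPM. Cow 2 had a tilt of 0.298, cow 4 of 0.0645 and cow 9 of 0.185. In low P4 it spread from -0.766 in cow 13 to 0.536 in cow 6. The mean tilt was 0.18 ± 0.12 (SD, n = 3) and -0.06 ± 0.45 (SD, n = 7), which did not differ beyond the spread between cows (exact permutation test, two-sided, p = 0.400). The part of length in the differences between P4 groups was not tested. A fit with length offsets again called 1 transcript. Its offsets adjust a transcript only for differences between samples in its own effective length, so that fit cannot decide this.

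Transcripts that distinguish LE from ST were chosen in LE and ST samples of low P4 and measured in GE. Their level in GE was not part of the choice, so they may be expressed by the glands themselves. The choice was not independent of the animals, however. Its LE and ST samples came largely from the cows that gave GE of low P4, and none came from a high P4 cow. Transcripts high in these cows were thus favoured, so a lower level in high P4 can follow in part from the choice. In ST, 81 transcripts had at least 20 TPM and at least 10-fold the level of LE. Their summed TPM in GE was 15.8% of the ST level in cow 2, 17.1% in cow 4 and 23.4% in cow 9, and 11.6% to 54.4% in low P4, with the highest value in cow 6. The ranges overlapped. Of the 75 transcripts tested, 10 (13.3%) were lower and 2 (2.67%) higher in high P4 at an unadjusted p under 0.05, against 5.65% and 3.46% of all transcripts tested. Their median log2 fold change was -0.52, and that of all transcripts was -0.09. In LE, 337 transcripts had at least 20 TPM and at least 10-fold the level of ST. Their sum in GE was 70.2% to 77.7% of the LE level in high P4 and 38.0% to 196% in low P4, with the highest value in cow 10. The sum in GE exceeded that in LE in cows 8, 10 and 12. The median of the single transcripts in these cows was 39.4%, 60.6% and 38.2% of the LE level. Most of the 337 were thus below their LE level there, and the sums do not describe the typical transcript. In cow 13 the median was 18.2%, while the sum was 95.6% of the LE level. Of the 328 tested, 60 (18.3%) were lower and 10 (3.05%) higher in high P4 at an unadjusted p under 0.05, beside the same 5.65% and 3.46% of all transcripts, with a median of -0.38 beside -0.09. In these samples, fewer cells of a type and less RNA per cell cannot be told apart. Whether the level of ST or LE transcripts plays a part in the P4 differences was not tested. Without cows 6 and 13 together, 0 transcripts passed in edgeR and 1723 had an unadjusted p under 0.05. The groups did not overlap for 738 higher and 714 lower transcripts, counts that can only stay or rise when samples are left out.

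**Figure D5:**
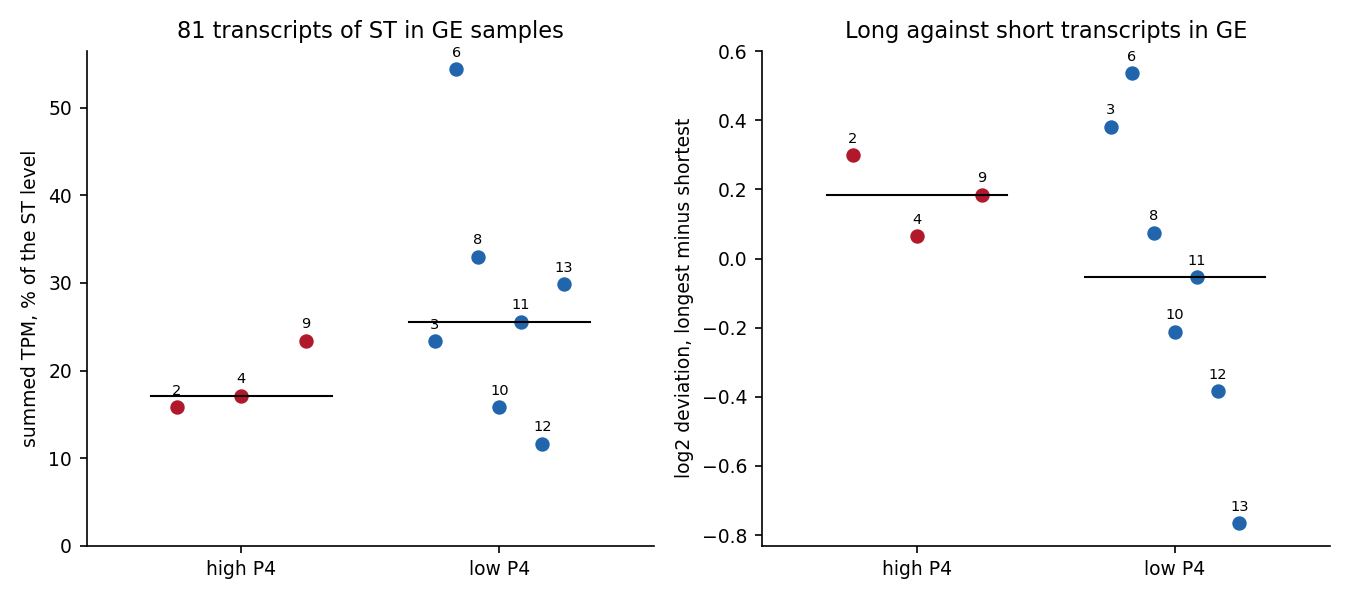
Left, summed TPM of 81 ST transcripts in each GE sample as a percentage of their level in low P4 ST. Right, median log2 deviation of the longest minus the shortest transcripts. Points are samples labelled by cow number, in red for high P4 (n = 3) and blue for low P4 (n = 7), and lines are medians. High P4 samples lie within the low P4 range in both plots, and cows 6 and 13 hold the extremes of the right plot, 0.536 and -0.766.

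The DESeq2 calls differed in size and overlap between the 2 directions. Of the 103 higher transcripts, 91 (88.3%) had groups that did not overlap, the median size of the log2 fold change was 1.30, and the median of the mean level was 45.8 CPM. Of the 324 lower transcripts, 177 (54.6%) did not overlap, the median size was 3.23, and the median level was 9.34 CPM. High P4 samples were all at 0 for 64 (19.8%) of the lower transcripts. Over all transcripts tested, 2.42% did not overlap in the higher direction and 2.06% in the lower, and 0.841% were at 0 in high P4. The calls were made on the same samples, which favours such patterns, so these shares do not check the calls. In 50 (15.4%) of the lower transcripts, 1 low P4 sample held more CPM than the other 6 together. In 11 (10.7%) of the higher transcripts, 1 high P4 sample held more than the other 2 together. These 2 shares cannot be compared, as 1 sample of 3 outweighs the rest more easily than 1 of 7. Among the 50, this was most often cow 3 with 15 transcripts, followed by cows 6 and 13 with 10 each. All 324 lower and 99 of the 103 higher transcripts had an unadjusted p under 0.05 in edgeR, a test of the same counts. Over all transcripts tested, 5.65% in the lower and 3.46% in the higher direction did.

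Cows without a GE sample allowed a look at the same transcripts in other animals, in ST. These were cow 5 with high P4 and cows 1 and 7 with low P4, and 20694 of the tested transcripts reached 1 CPM in at least 1 of them. Over all of these, cow 5 lay above both low P4 cows in 34.7% and below both in 30.2%. For the 510 transcripts higher in GE of high P4 without overlap, the shares were 50.2% above and 16.3% below. For the 450 lower in GE, they were 17.6% above and 48.7% below. The direction in GE was thus met more often than over all transcripts. With 1 high P4 cow no test was possible, and a difference between cow 5 and the others need not come from P4.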

How the data were processed

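GE cells of 10 Holstein cows were laser-captured, and cDNA was made from 2.5 ng RNA with the SMART-Seq v4 kit and tagmented with Nextera XT, per the labels. The authors quantified reads with Salmon 1.1.0 against bovine transcripts (ARS-UCD1.2 in the submitters' processing notes) and deposited estimated counts without normalization and TPM values computed by Salmon, which divide counts by effective length (in bases, also deposited) and scale to a common total. Of GE counts above 0, 74.4% were not whole numbers, as reads shared by transcripts were split. PCR amplification without molecular identifiers means that counts are not independent molecules, and the floors of 3 counts cover counting error only.

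Counts were rounded, filtered (at least 10 in at least 3 GE samples) and tested with edgeR 4.0.16 (TMM, quasi-likelihood, Benjamini-Hochberg) in R 4.3.3 on the 10 GE samples alone. Standard errors are the log2 fold change divided by the square root of F. Single values per sample were compared by exact permutation of 120 choices. The test was checked on simulated data. Alternatives were DESeq2 1.42.0, limma 3.58.1 voom, RLE, no filter, a stricter filter, length offsets, a fit of 29 samples, the first letter of the sample titles (of unstated meaning) as a covariate, TPM for the overlap, and leaving out each sample. Leaving out samples from the overlap counts, leaving out cows 6 and 13, sizes in TPM, the groups of ST and LE transcripts, and the ST samples of other cows were chosen after seeing the data. Figures and tables used Python 3.11.15.

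The comparison, lists and rules were chosen with earlier results of these data known. The rule for named transcripts took the smallest edgeR p among those with a mean of at least 1 CPM and groups that do not overlap, up to 2 in each direction because the files do not pair transcripts with names. Gene lists, marker lists and sums per gene were therefore not run. RNA integrity per sample was not used here. The SD measures the spread between cows, and the p-values of tests on GE alone set a group difference against that spread. The fit of 29 samples treated samples of the same cow as independent.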

Additional observations from a re-analysis of the deposited data

How the results depend on the processing

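The edgeR call of ENSBTAT00000039909.5 was also the single call with RLE, no filter and length offsets, whereas the 1 transcript of limma voom was another, ENSBTAT00000066890.1, in the higher direction. It was 0 with the stricter filter, with 1 fit of 29 samples, with the title letter and without cows 6 and 13, and 427 with DESeq2. Leaving out 1 sample gave 0 to 4 transcripts, with 0 without cow 2, 3, 6, 10 or 11, 3 without cow 8, and 4 without cow 9 or 13. The 2221 transcripts with an unadjusted p under 0.05 became 1153 to 2434 when 1 sample was left out, with 1336 without cow 2 and 1153 without cow 4. The counts of transcripts without overlap, 589 higher and 503 lower, became 1067 and 208 in TPM. Leaving out 1 sample gave 636 to 1375 higher and 580 to 1264 lower transcripts. They numbered 1035 and 836 without cow 2, 887 and 797 without cow 4, and 1375 and 1264 without cow 9. Over the same transcripts, leaving out any sample can only keep or raise these counts, by construction. For the changes in the tests and in TPM the cause was not tested. The 4 named transcripts kept their direction in every fit that tested them. ENSBTAT00000066890.1 was not tested in 4 fits, since at 0 in low P4 it fails the stricter filter, and it fails the filter once a high P4 sample is left out, and ENSBTAT00000039909.5 was not tested with the stricter filter. No paired analysis was possible because each cow gave 1 GE sample. Sums per gene were not run. The adjusted p of a transcript rests on 3 high P4 cows, so a p over the threshold does not show that levels were alike.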
